A study of Danio rerio with 24 samples.

Results

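Before its own genome is switched on, a fish embryo runs on the RNA and protein that its mother laid down in the egg. Maternal transcripts are made in the growing oocyte, stored as ribonucleoprotein particles, and drawn on during the first cell divisions, so the RNA of an unfertilized egg is a record of its mother's ovary. The transcripts described here are those in which the eggs of 2 mothers, mother 4 and mother 5, stood together and apart from the eggs of mothers 1, 2 and 3.

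The series held 24 single unfertilized eggs of zebrafish, Danio rerio, obtained by squeezing from 5 mothers that were siblings of the wild-type strain ABTL. There were 5 eggs from each of mothers 1 to 4 and 4 eggs from mother 5, all of 1 clutch per mother, so that mother and clutch cannot be told apart. No treatment, age or other trait in the sample descriptions sets mothers 4 and 5 apart from the others. The eggs of a clutch share a mother, and p-values between clutches therefore measure the spread between eggs, not between mothers. Total RNA of each egg was given poly(A) tails and depleted of ribosomal RNA. It was then amplified, labelled with Cy3 and hybridized on a 2-colour microarray beside a Cy5 reference pooled from eggs.

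A transcript was taken as a member when the lowest of the 9 eggs of clutches 4 and 5 lay above the highest of the 15 eggs of clutches 1, 2 and 3, or when the highest of the 9 lay below the lowest of the 15. The values were log2 Cy3 signals after quantile normalisation, and a transcript here is a probe. Of 26803 probes called expressed, 289 met the rule, which is 1.08%. The 9 eggs were higher in 157 of them (0.586% of the expressed probes) and lower in 132 (0.492%). The members were thus selected on these same signals, and their differences are given as a description and carry no test. For comparison, the same rule found 850 probes with clutches 2 and 3 on one side of clutches 1, 4 and 5, and 241 with clutches 1 and 5 on one side of clutches 2, 3 and 4.

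The count of members rested on the normalisation. When each array was centred on its median in place of quantile normalisation, 16 probes were higher and 9 lower, and with the ratio of Cy3 over Cy5 the counts were 85 and 76. The mean difference between the 2 sides kept its sign under both for all 157 higher members. Of the 132 lower members, 127 kept it under median centring, a setting that raised the median of all expressed probes in clutches 4 and 5 by 0.338 log2 over the others. Relative to that shift, all 132 were lower. The members were chosen for their separation, and these scales use the same signals, so a kept sign is no separate support. In all 5 other ways of making the values that were tried, 14 higher and 8 lower members stayed apart. The pooled Cy5 reference, measured on the same spots, showed 0 higher and 0 lower probes among the 26803 when its signals were treated in the same way. Being a common pool, the reference cannot show differences that arose in the poly(A) tailing, depletion, amplification or labelling of single eggs.

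The mean raw log2 Cy3 signal per array was 7.11 to 7.34 in clutch 4, 6.76 to 7.08 in clutch 5 and 6.60 to 7.48 over the other 3 clutches, so the arrays of the 2 sides overlapped in brightness. Of the listed egg markers, h1m, zp2.3 and npm2a could be matched and were present in all 24 eggs. Follicle cell markers were matched by 3 genes, of which cyp11a1 was present on all 24 arrays, hsd3b1 on 19 and lhcgr on 5. The only muscle marker matched, mylpfb, was present on all 24. None of these 7 genes was a member. The steroid enzyme gene cyp11a1 had its highest means in the pair, at 11.66 and 11.95 in clutches 4 and 5 against 10.97, 10.71 and 11.45 in clutches 1, 2 and 3, and hsd3b1 stood at 8.21 and 8.14 against 8.06, 7.57 and 6.25, while lhcgr was at 6.27 and 6.31 against 6.34, 7.70 and 6.33. The lists hold 24 egg, 14 follicle cell and 9 muscle genes, and the part of other cells in the members was not tested.

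The size of the separation varied widely. Among the higher members, the mean of clutches 4 and 5 exceeded that of clutches 1, 2 and 3 by a median of 0.82 log2, with a range of 0.24 to 5.35. Among the lower members, the median difference was -0.88 log2 and the range ran from -5.23 to -0.29. Over all expressed probes, the median absolute difference was 0.156 log2. The gap, the distance on the log2 scale from the outermost egg of the one side to the nearest egg of the other, had a median of 0.11 in the higher and 0.15 in the lower members. It reached at least 0.2 in 46 higher and 50 lower members, and at least 1 in only 5 and 4, so most members were separated by little more than the last egg on each side.

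**Figure D1:**
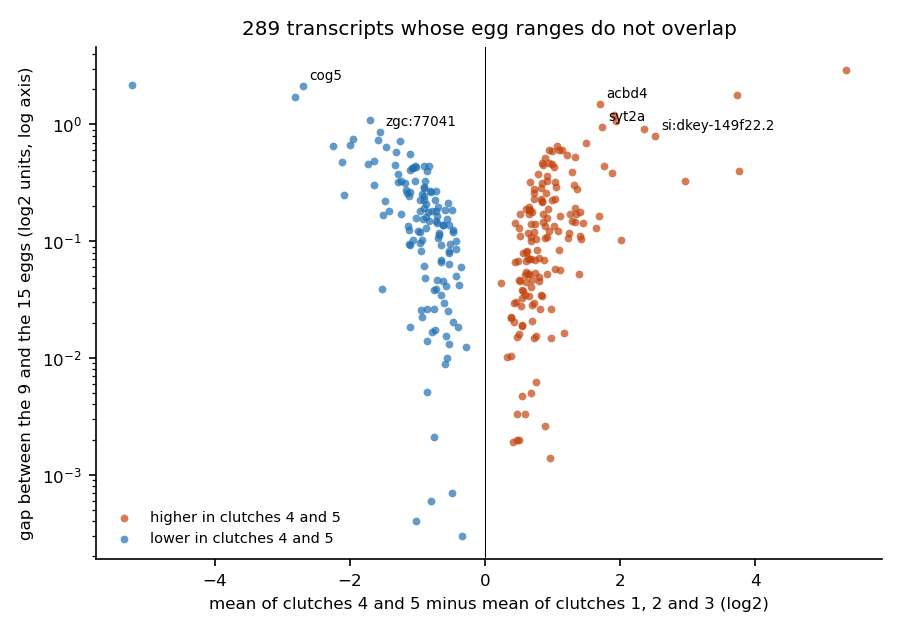
The 289 members are plotted by the mean difference between clutches 4 and 5 and clutches 1, 2 and 3 (x axis, log2) and by the gap between the nearest eggs of the 2 sides (y axis, log2 units on a log axis). Most points lie within a gap of 1, and acbd4 and cog5 lead the named genes.

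The edge of the rule shows how fine the cut was. The named higher members with the narrowest gaps were mroh1 (gap 0.0019), tap1 (0.0026) and si:dkey-16p19.1 (0.0033). Just outside it, the lowest egg of clutches 4 and 5 fell below the highest of the others by 0.004 in kdm7ab, 0.008 in prtfdc1 and 0.0129 in gabpb2b, with mean differences of 0.70, 0.58 and 0.50 log2. On the lower side, slc7a4 (0.0004), fgfr1op2 (0.0089) and itih2 (0.0265) lay just inside, and si:dkey-119m17.2, batf3 and fam174b overlapped by 0.0009, 0.0065 and 0.0126. Members and non-members thus met without a break at the rule's edge.

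Gene names came from the study's supplementary tables, which were held only in part. They paired 70 of the 157 higher and 29 of the 132 lower members with an Ensembl gene, and 65 and 26 of these had a symbol. Of 3331 expressed probes with a symbol, 1.95% were higher members and 0.781% lower members. Many of the names come from a table of mother-specific genes, which the study chose on these same eggs and which was held only in part. Outside that table, 0 of 1805 named expressed probes were higher members and 9 were lower (0.499%). The balance of named genes between the 2 directions is therefore not read as a result. In what follows, the roles given are those of the vertebrate protein of that name, known mostly from mammals.

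The named higher gene with the widest gap was acbd4 (ENSDARG00000027070, chr12:15526454-15577783), which encodes a protein with an acyl-CoA binding domain. Its log2 signal was 7.95, 7.90, 7.96, 8.16 and 8.06 in the eggs of clutch 4 and 7.95, 7.89, 7.92 and 7.81 in those of clutch 5. In clutch 1 it was 6.31, 6.27, 6.22, 6.18 and 6.23, in clutch 2 it was 6.31, 6.21, 6.24, 6.20 and 6.22, and in clutch 3 it was 6.29, 6.30, 6.30, 6.22 and 6.13. The 2 sides were 1.49 log2 apart at their nearest eggs, and the spot was well above background in all 9 eggs of the one side and in none of the 15 of the other. The level of clutches 1, 2 and 3 is then only a bound, and acbd4 was at least 2.87-fold higher in clutches 4 and 5. Such a bound sets the mean of the bright eggs against the lowest signal that counted as well above background on each dim array. Clutches 4 and 5 differed from each other in acbd4 by 0.11 log2 (SE 0.07, limma adjusted p = 0.31). Since all 15 eggs of clutches 1, 2 and 3 were at the floor of the array, acbd4 could not be compared among them.

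The gene syt2a (ENSDARG00000025206, chr23:6298919-6379836) encodes a synaptotagmin, a calcium sensor of vesicle fusion. Its signal was 8.42, 8.18, 8.37, 8.33 and 8.13 in clutch 4 and 8.86, 8.69, 8.53 and 8.55 in clutch 5. In clutches 1, 2 and 3 the means were 6.58 ± 0.25, 6.72 ± 0.09 and 6.91 ± 0.21 (SD, n = 5 each), and the highest of the 15 eggs read 7.18. All 9 eggs lay above that egg by 0.95 log2 or more, and the mean difference was 1.74 log2. Of the 15 low eggs, 10 were well above background, 2 of them in clutch 1. Clutch 5 was above clutch 4 by a small step, with a difference of -0.37 log2 for clutch 4 minus clutch 5 (SE 0.12, limma adjusted p = 0.0295). That call did not hold with the slide as a block (adjusted p = 0.0528) or with several single eggs left out, and under median centring, which shifted all expressed probes of clutch 4 over clutch 5 by a median of 0.66 log2, the difference was 0.37.

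A gene with only a clone name, si:dkey-149f22.2 (ENSDARG00000092351, chr8:48525782-48538777), had the largest mean difference of the 15 leading higher genes, at 2.52 log2. It read 9.63, 9.51, 9.80, 9.76 and 9.27 in clutch 4 and 8.56, 8.24, 8.34 and 8.81 in clutch 5. The eggs of clutch 1 lay between 6.33 and 7.45, those of clutch 2 between 6.21 and 6.31, and those of clutch 3 between 6.25 and 6.76. Clutch 4 thus stood above clutch 5, and both stood above the rest. Clutches 1, 2 and 3 differed as well (limma F, adjusted p = 0.0127), though mostly at the floor of the array. The step from clutch 5 to clutch 4 was 1.11 log2 (SE 0.17, limma adjusted p = 2.72e-05), while its adjusted p was 0.178 with the background-subtracted signal. Only 3 of the 15 low eggs were well above background.

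2 leading genes act on RNA or its synthesis. The scavenger decapping enzyme dcps (ENSDARG00000009862, chr10:39362498-39373238) clears the cap that remains after an mRNA has been degraded. Its signal was 10.75, 10.75, 10.78, 10.82 and 10.85 in clutch 4 and between 10.63 and 10.81 in clutch 5 (10.74 ± 0.09, SD, n = 4), against clutch means of 9.88 ± 0.16, 9.75 ± 0.14 and 9.81 ± 0.11 in clutches 1, 2 and 3. The lowest of the 9 eggs was 0.61 log2 above the highest of the 15, and the mean difference was 0.95 log2. The Mediator subunit med27 (ENSDARG00000009681, chr8:11846966-11950360), part of the complex that joins transcription factors to RNA polymerase, had means of 11.83 ± 0.11 and 11.70 ± 0.05 in clutches 4 and 5. Its means in clutches 1, 2 and 3 were 10.69 ± 0.24, 10.65 ± 0.13 and 10.68 ± 0.17. In neither gene did clutch 4 minus clutch 5 pass the test (0.05 and 0.14 log2, limma adjusted p = 0.737 and 0.435), and in neither did clutches 1, 2 and 3 pass the F-test (adjusted p = 0.421 and 0.92). On each side the clutch means of these 2 genes lay within 0.14 log2 of each other.

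There was also no call between clutches 4 and 5, nor among clutches 1, 2 and 3, in mtx1b and snf8 among the leading higher genes. The metaxin gene mtx1b (ENSDARG00000036109), whose product sits in the outer mitochondrial membrane and takes part in protein import, had means of 12.37 ± 0.10 and 12.33 ± 0.10 in clutches 4 and 5 and between 11.40 and 11.59 in the others. The ESCRT-II subunit gene snf8 (ENSDARG00000058076), which serves the sorting of membrane proteins into multivesicular bodies, had means of 9.38 ± 0.15 and 9.31 ± 0.14 against 8.55 to 8.67. Their mean differences were 0.84 and 0.73 log2. Both were well above background in all 24 eggs.

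Other leading genes were graded among the 3 low clutches. The tumour suppressor phosphatase gene ptena (ENSDARG00000071018, chr17:23630545-23654524), which counters phosphoinositide 3-kinase, read 11.93, 12.16, 11.82, 11.67 and 11.91 in clutch 4 and 11.95, 11.73, 11.90 and 11.63 in clutch 5. Its clutch means fell from 10.85 ± 0.27 in clutch 1 to 10.68 ± 0.24 in clutch 2 and 10.18 ± 0.40 in clutch 3, and these differed (limma F, adjusted p = 0.00326). In gc2 (ENSDARG00000018329) the same order of clutches was not kept, since clutch 1 stood at 7.19 ± 0.09, clutch 3 at 6.80 ± 0.08 and clutch 2 at 6.59 ± 0.12 (adjusted p = 8.24e-07). The Ser/Thr kinase gene stk16 (ENSDARG00000037777) had clutch 1 at 7.73 ± 0.28 above clutches 2 and 3 at 7.30 ± 0.09 and 7.29 ± 0.07, and clutches 4 and 5 at 8.48 ± 0.15 and 8.49 ± 0.19. In each of the 3 genes clutch 4 against clutch 5 did not pass the test (adjusted p = 0.756, 0.451 and 0.944).

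The collagen chaperone gene fkbp10b had means of 9.95 ± 0.11 and 9.84 ± 0.14 in clutches 4 and 5 against 8.70 to 9.19, and l3mbtl2, a chromatin protein that binds methylated histone tails, had 9.45 ± 0.10 and 9.31 ± 0.10 against 8.15 to 8.68. The mean differences were 0.92 and 1.00 log2, and in both clutches 1, 2 and 3 differed (adjusted p = 0.021 and 0.00305). The de novo DNA methyltransferase gene dnmt3ab had 7.68 ± 0.11 and 7.26 ± 0.09 against 6.39 to 6.77, with clutch 4 above clutch 5 by 0.42 log2 (SE 0.10, limma adjusted p = 0.00502). Its signal was well above background in all 9 eggs of the pair and in 6 of the other 15.

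The muscle Z-disc gene myoz1b (ENSDARG00000071445, chr12:26293886-26317516) read 7.58, 7.55, 7.72, 7.83 and 7.72 in clutch 4 and 7.38, 7.30, 7.50 and 7.51 in clutch 5, while no other egg exceeded 6.70. The mean difference was 1.13 log2. Another 2 probes, listed by the authors as cross-hybridising with this one, differed between the same 2 sides by only 0.02 and 0.27 log2. Of these, the first was present on no array, so it cannot be set against the member. The other was present on 5 arrays and was called expressed. Its means were 6.94 and 7.04 in clutches 4 and 5 against 6.69, 6.75 and 6.72 in clutches 1, 2 and 3. Its egg ranges overlapped by 0.33 log2, so it did not repeat the separation of the member. The member probe was itself present on only 9 arrays. It was well above background in all 9 eggs of the pair and in 3 eggs of clutches 1, 2 and 3. Over 5 genes of higher members with such a listing, 9 cross-hybridising probes were found, all with a positive mean difference (0.02 to 1.69 log2). The egg ranges were apart in 1 of the 9, which was not called expressed. The listing does not say that a probe reads the same gene. These probes were read on the same arrays and RNA, and they were chosen for description after the data had been seen.

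**Figure D2:**
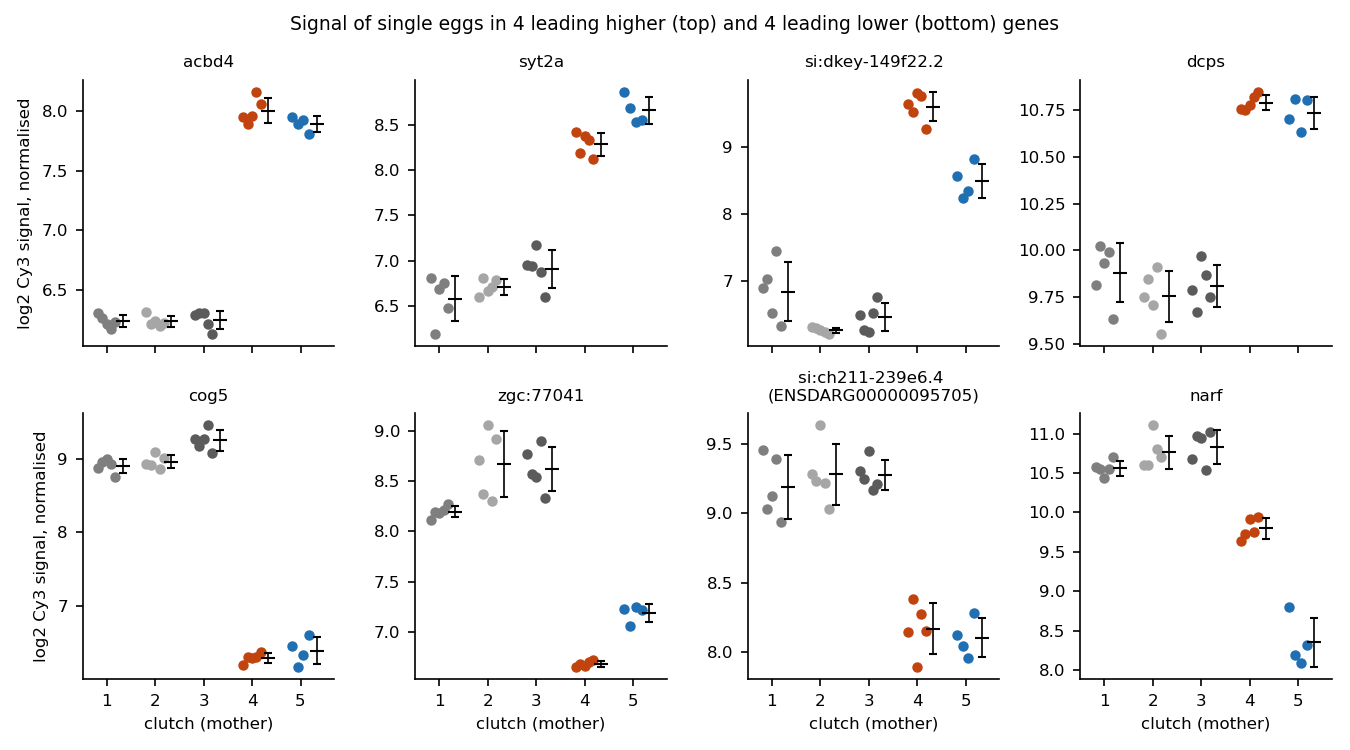
Normalised log2 Cy3 signal (y axis) of each egg by clutch (x axis) for the 4 named genes with the widest gap in each direction (the third of the lower row is ENSDARG00000095705), with the mean and SD of each clutch beside the points. In the upper panels all 9 eggs of clutches 4 and 5 lie above the other 15, and in the lower panels all 9 lie below.

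Among the named lower genes, cog5 (ENSDARG00000008235, chr4:2618672-2707599) had the widest gap. It encodes a subunit of the conserved oligomeric Golgi complex, which tethers vesicles that return to and within the Golgi. Its signal was 6.20, 6.31, 6.29, 6.30 and 6.38 in clutch 4 and 6.45, 6.17, 6.34 and 6.61 in clutch 5. In clutch 1 it was 8.87, 8.95, 9.0, 8.92 and 8.75, in clutch 2 it was 8.92, 8.92, 9.10, 8.86 and 9.0, and in clutch 3 it was 9.27, 9.17, 9.27, 9.45 and 9.08. All 15 of these eggs were well above background, against 1 of the 9 eggs of the pair. The gap was 2.14 log2 and the mean difference -2.69 log2. With the background-subtracted signal the difference was -6.16 log2, so its size differed by the treatment of background. Clutches 1, 2 and 3 also differed in cog5 (limma F, adjusted p = 0.00332), with clutch 3 the highest.

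The gene zgc:77041 (ENSDARG00000068291) was lower in a graded manner. It read 6.65, 6.68, 6.66, 6.70 and 6.72 in clutch 4 and 7.23, 7.06, 7.25 and 7.21 in clutch 5, and the 15 other eggs lay between 8.11 and 9.06. Clutch 4 was thus below clutch 5, by -0.51 log2 (SE 0.13, limma adjusted p = 0.00503).

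The gene narf (ENSDARG00000024184, chr12:33359811-33373046), named for its binding to prelamin A, differed most between the clutches of the pair. It read 9.64, 9.73, 9.92, 9.75 and 9.94 in clutch 4 and 8.79, 8.18, 8.09 and 8.32 in clutch 5. The other clutches had means of 10.56 ± 0.10, 10.76 ± 0.21 and 10.83 ± 0.21, which did not pass the F-test (adjusted p = 0.162). Clutch 4 therefore stood midway, 1.45 log2 above clutch 5 (SE 0.13, limma adjusted p = 1.02e-08). This was the largest difference between clutches 4 and 5 among the 289 members, and its call held under every alternative tried.

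Among the other lower genes, optn (ENSDARG00000002663, chr4:8007828-8018689), which encodes the autophagy receptor optineurin, had means of 6.87 ± 0.07 and 6.97 ± 0.22 in clutches 4 and 5. The means of clutches 1, 2 and 3 were 7.89 ± 0.18, 8.90 ± 0.31 and 9.19 ± 0.19 (limma F, adjusted p = 2.24e-08), so clutch 1 lay between. The same place of clutch 1 was seen in bco2a (ENSDARG00000055722), whose product cleaves carotenoids. Its means were 6.45 ± 0.03 and 6.43 ± 0.06 in the pair, 7.07 ± 0.16 in clutch 1, 9.03 ± 0.17 in clutch 2 and 8.15 ± 0.21 in clutch 3 (adjusted p = 1.09e-13). Only 3 of the 9 eggs of the pair were well above background for bco2a. The metadherin gene mtdha had 10.20 ± 0.17 and 10.14 ± 0.11 in the pair against 11.11 to 11.36, with no call within either side.

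The neuronal calcium sensor gene hpca had means of 8.36 ± 0.13 and 8.35 ± 0.24 in clutches 4 and 5 against 9.05 to 9.65, and zgc:63972 had 7.34 ± 0.11 and 6.81 ± 0.17 against 8.06 to 8.65. Among the leading lower members, 2 Ensembl genes shared 1 clone symbol. Whether their probes can tell them apart was not tested, and their signals are uncertain in this respect. ENSDARG00000095705 had 8.17 ± 0.18 and 8.10 ± 0.14 in the pair against 9.19 to 9.28. ENSDARG00000045551 had 11.23 ± 0.14 and 10.59 ± 0.37 against 12.12 ± 0.23, 13.10 ± 0.09 and 13.85 ± 0.13. In the first no call was made within either side, and in the second the other 3 clutches differed as well (limma F over clutches 1, 2 and 3, adjusted p = 1.79e-10).

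The widest separations of all lay in probes with no gene in the tables held. The study removed genes whose signals could not be normalised, or that had an extreme value in a single sample, while all probes of the main set were kept here. None of the 99 members paired with an Ensembl gene was in the list of genes that could not be normalised, as held. Members without a pairing, these probes among them, could not be checked. In the highest of these unnamed probes, clutches 1, 2 and 3 were between 6.19 and 7.33, while clutch 4 read 12.52, 11.28, 12.36, 10.44 and 12.20 and clutch 5 read 12.40, 10.24, 12.48 and 12.45. In the second, clutch 4 read 10.89, 9.79, 10.81, 9.71 and 10.64 and clutch 5 read 10.43, 8.68, 10.41 and 10.17, with no other egg over 6.90. The low eggs were the same in both probes, eggs 2 and 4 of clutch 4 and egg 2 of clutch 5. Whether both probes read one transcript was not tested. The unnamed probe with the widest gap on the lower side differed by -5.23 log2. It read 10.95 or more in the 15 eggs and 6.71 or less in 8 of the 9, with egg 4 of clutch 5 at 8.77. In 2 higher and 8 lower members the dim side was well above background in no egg. Of these, acbd4 and myom1b had a symbol. In myom1b, a gene of the muscle M-band, only 7 of the 9 eggs of the pair were well above background, 2 of them in clutch 5. No bound on its fold is therefore given. Its means were 7.17 in clutch 4 and 6.64 in clutch 5, which differed by 0.53 log2 (SE 0.08, limma adjusted p = 4.42e-05).

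The named members were sorted into gene lists by patterns in their symbols, so the lists are incomplete. Members whose described role would fit a list but whose symbol matched no pattern are not in its count. They include ptena (a phosphatase), l3mbtl2 (chromatin), mtx1b (mitochondrial import), rev3l (a DNA repair polymerase), and syt2a, snf8 and cog5 (vesicle trafficking and sorting). Further members also matched no pattern, spry2, acbd4, ergic2 and mul1b among them, and were not sorted by role. Over all named probes, 65 of the 3331 named expressed probes were higher members and 26 lower, a share of 2.73%. The named higher members all came from the table of mother-specific genes, which held 1526 of the 3331. That part varied by list, with 52 of 86 for lipids and glycosylation, 30 of 71 for kinases and phosphatases and 15 of 73 for RNA processing. Counts are therefore not compared between lists. The list of kinases and phosphatases had 4 higher and 0 lower members among 71 expressed probes, namely stk16, prkcba (protein kinase C beta), mapk7 (ERK5) and mink1, with mean differences of 1.04, 1.23, 0.55 and 0.33 log2. In prkcba the 9 eggs lay between 7.76 and 8.33 and the other 15 between 6.41 and 7.65. The median difference of the 71 probes was 0.12 log2, against 0.01 over all named probes. This was the highest median of the lists, and the lowest was -0.08 log2 in transcription machinery. These medians were not tested, and nothing is read from them.

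The cytoskeleton and motor list had 3 higher and 0 lower of 74, which were myoz1b, myom1b and the mitotic kinesin kif4 (0.53 log2). The chromatin and histone list, without l3mbtl2, had 2 higher of 56, dnmt3ab and h2afy. The latter encodes the histone variant macroH2A, and its mean was 10.92 in clutch 4 and 10.86 in clutch 5, close to 10.47 in clutch 1 but far from 8.50 in clutch 2. Lipid and glycosylation genes had 2 higher of 86, dgat1b, which makes the last step of triacylglycerol synthesis, and osbpl10, an oxysterol-binding protein gene, with 1.33 and 0.64 log2. Both members in the immune list were higher, il15l and nccrp1 of 24 probes, by 0.92 and 0.61 log2. For il15l only 7 of the 15 eggs of clutches 1, 2 and 3 were well above background, 0 of them in clutch 1.

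In translation, 2 of 138 were higher, the ribosomal protein gene rps25 (0.44 log2, from 14.22 to 14.61 in the 15 eggs and 14.76 or more in the 9) and the mitochondrial ribosomal gene mrpl38 (0.38 log2). The lists of mitochondrial energy and import (84 probes), transcription factors (68) and cell cycle, replication and repair (49) held 0 members, with mtx1b and rev3l among the members outside them. Of these probes, 21, 29 and 17 were in the table of mother-specific genes. Single higher members were found in RNA processing and decay (dcps, of 73), transcription machinery (med27, of 46), ubiquitin and proteasome (trim36, of 75), small GTPases (rab3ip, of 59) and vesicle trafficking (bet1, of 55, beside syt2a and snf8, which the list leaves out). The lower members in a functional list were the amino acid transporter gene slc7a4, of 70, and fgfr1op2, of 29. The symbol alone placed fgfr1op2 among patterning signals. Other lower members, such as cog5 and spry2, were taken up by no list. Genes with clone names held 10 higher and 6 lower of 603. No member list was tested, and the tables name only part of the probes.

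Among the lower genes outside the lists, the FGF antagonist gene spry2 differed by -1.53 log2, with clutch 4 at 6.51, clutch 5 at 7.25 and the other means between 7.70 and 8.78. The transcriptional co-regulator gene cited2 differed by -1.14 log2, with means of 9.53 and 9.84 in clutches 4 and 5 and of 10.21 to 11.48 in the others. The biotin ligase gene hlcs and the proline synthesis gene aldh18a1 differed by -0.97 and -0.73 log2. For hlcs only 3 of the 9 eggs of clutches 4 and 5 were well above background. In spry2 and cited2 both clutches 4 and 5 (limma adjusted p = 0.0102 and 0.0485) and clutches 1, 2 and 3 differed (adjusted p = 3.66e-05 and 9.9e-10).

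The tables gave a position for 62 higher and 22 lower members. Chromosome 4 held 8 of the 22 lower members (36.4%) and 6 of the 62 higher (9.68%), against 2.85% of the 2773 expressed probes with a position. Chromosome 12 held 8 of the 62 higher members (12.9%), acbd4, fkbp10b, l3mbtl2, snf8, myoz1b, mapk7, mrpl38 and anxa11b, against 2.81% of the expressed probes, and 1 lower member, narf. Among the lower members with a position, chromosome 4 held 3 of the 6 outside the table of mother-specific genes and 5 of the 16 inside it. Chromosomes 2, 3, 6, 13, 14 and 24 held none. These shares are a description, since the positions were held for part of the members.

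**Figure D3:**
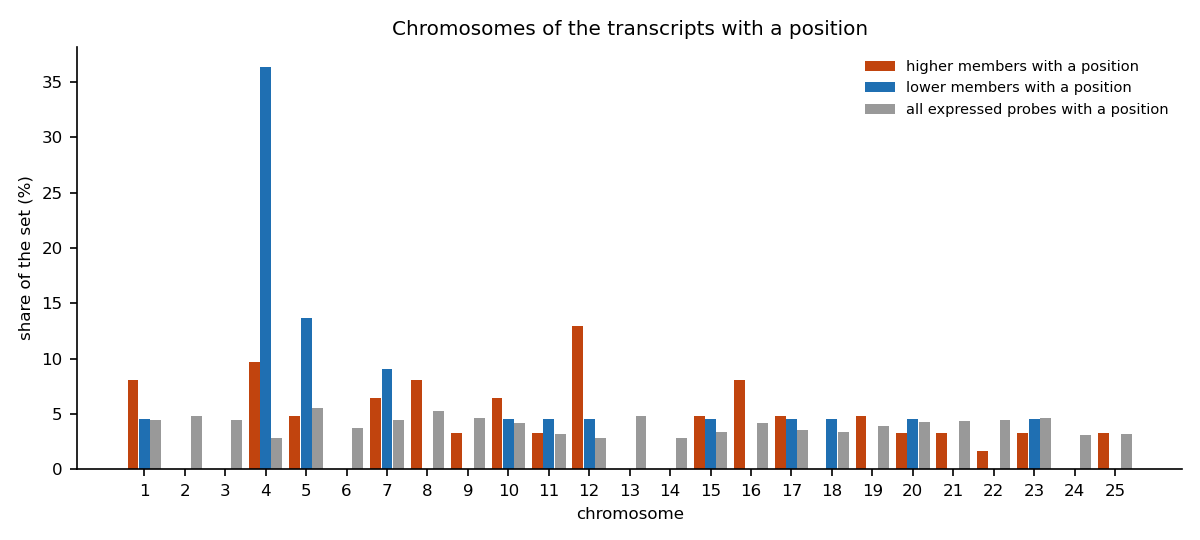
Share of a set on each of the 25 chromosomes (x axis), in percent (y axis), for the 62 higher members, the 22 lower members and the 2773 expressed probes with a position. The bar for lower members on chromosome 4 reaches 36.4%, and that for higher members on chromosome 12 reaches 12.9%.

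Members also lay near each other. Of the 84 members with a position, 26 (31%) had another member within 1 Mb, against 11.2% of the 2689 other expressed probes with a position. The share of the others was 11.2% inside and 11.1% outside the table of mother-specific genes. At one end of chromosome 4, 4 members of both directions followed each other. They were gas2l3 (higher, chr4:1839999-1871335), fgfr1op2 (lower, chr4:1873586-1881607), csrp2 (higher, chr4:2581518-2595823) and cog5 (lower). The first 2 were 0.002 Mb apart and the last 2 were 0.023 Mb apart, and their mean differences were 0.89, -0.60, 0.65 and -2.69 log2. Neighbours thus lay on both sides.

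Further along chromosome 4, the importin gene ipo8 (chr4:9359781-9388443) and the Hsp70 family gene hspa14 (chr4:9591570-9600775) differed by -0.90 and -0.72 log2, and svopl (chr4:9768134-9780216) beside them was higher by 0.24 log2. On chromosome 10, rps25, dcps and kirrel3a followed each other within 0.175 and 0.182 Mb and were all higher, by 0.44, 0.95 and 0.38 log2. On chromosome 1, spry2 was lower and stk16, at 0.163 Mb from it, was higher. On chromosome 16, dgat1b and mroh1 lay 0.258 Mb apart and both were higher.

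The rule did not set clutch 4 against clutch 5, and this comparison was tested with limma over all expressed probes. Of the 26803 probes, 4929 (18.4%) differed, 2708 higher in clutch 4 (10.1%) and 2221 higher in clutch 5 (8.29%). Among the 289 members, 42 differed (14.5%), 23 higher in clutch 4 and 19 higher in clutch 5. This share is near that of all probes, and the rule favours transcripts whose 9 eggs lie close together, so nothing is read from it. The median absolute difference between clutches 4 and 5 was 0.13 log2 in the members and 0.17 log2 in all expressed probes. In none of the 289 members was the difference between clutches 4 and 5 as large as that from clutches 1, 2 and 3. Over all expressed probes it was larger in 14282 of 26803. The rule selects members in which the difference from clutches 1, 2 and 3 is large, so nothing is read from this either.

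**Figure D4:**
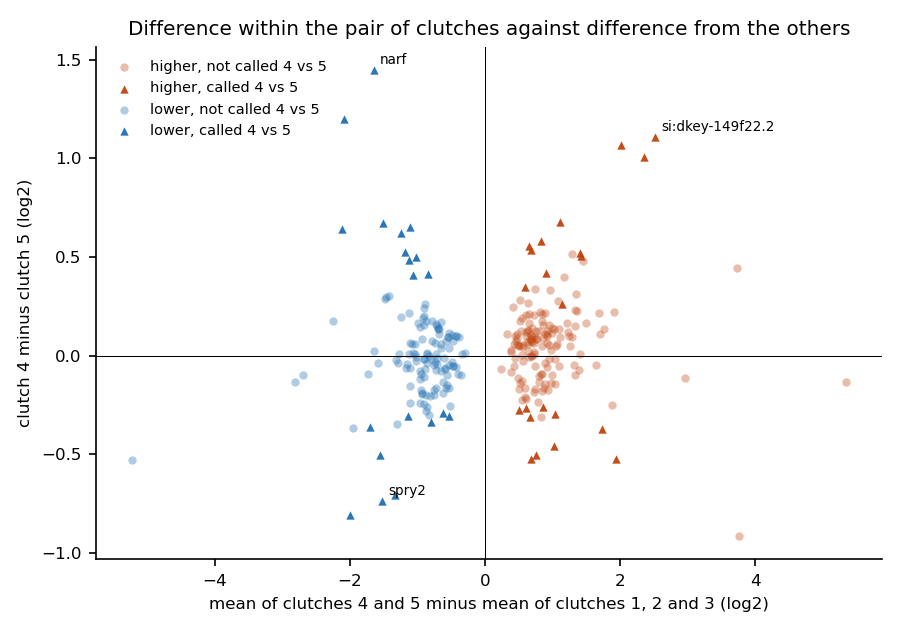
Each of the 289 members is placed by its mean difference between clutches 4 and 5 and clutches 1, 2 and 3 (x axis, log2) and by clutch 4 minus clutch 5 (y axis, log2), with triangles for the 42 that passed limma at an adjusted p of 0.05. The gene narf is the topmost point at 1.45 log2, and most members lie near 0 on the y axis.

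Among the 25 leading named genes, 8 differed between clutches 4 and 5, which were syt2a, si:dkey-149f22.2, myoz1b, dnmt3ab, zgc:77041, narf, zgc:63972 and ENSDARG00000045551. In narf, zgc:63972 and ENSDARG00000045551, clutch 5 was the lower of the pair and so stood farther from the other 3 clutches. Clutch 5 also stood farther in syt2a, as the higher of the pair. In si:dkey-149f22.2, myoz1b and dnmt3ab, clutch 4 stood farther, and so it did in zgc:77041, as the lower of the pair. Of these 8 calls, that of narf alone was kept under all alternatives tried. The call of syt2a was lost without egg 2 or egg 5 of clutch 4 (limma adjusted p = 0.069 and 0.0767) or without egg 1 or egg 2 of clutch 5 (adjusted p = 0.12 and 0.0708), and that of myoz1b without egg 4 of clutch 4 (adjusted p = 0.0639) or without egg 1 or egg 2 of clutch 5 (adjusted p = 0.06 and 0.0861). Clutch 4 had the highest mean in 103 of the 157 higher members and clutch 5 in 54. In the lower members the lowest mean was in clutch 4 for 71 and in clutch 5 for 61. The same order over all expressed probes was not counted, and the members were selected on these values, so nothing is read from it.

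Clutches 1, 2 and 3 were compared with each other in the same way. They differed by the limma F-test in 12306 of the 26803 probes (45.9%) and in 162 of the 289 members (56.1%), of which 85 were higher and 77 lower members. Clutch 2 had the lowest mean in 89 of the 157 higher members, clutch 3 in 43 and clutch 1 in 25. In the lower members, clutch 2 had the highest mean in 63, clutch 3 in 55 and clutch 1 in 14. Over all 26803 expressed probes, the lowest of these 3 means was in clutch 1 for 33.8%, in clutch 2 for 31.1% and in clutch 3 for 35.1%, and the highest in 32.5%, 32.0% and 35.5%. The members were selected on these values, so their order is a description. Of the 25 leading genes, 15 differed among these 3 clutches, but for some the test compared mostly background. In the eggs of these clutches acbd4 was well above background in 0, si:ch211-121a2.2 in 1, si:dkey-149f22.2 and myoz1b in 3 each and dnmt3ab in 6. The genes si:dkey-149f22.2, myoz1b and dnmt3ab are among those counted as differing, so nothing is read from the count.

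The scale sets the size of these differences. The normalised values keep the background of the array, and differences of dim transcripts were larger with the background-subtracted signal scaled to its 75th percentile, at 4.91 log2 for acbd4, 5.29 for si:dkey-149f22.2 and 3.20 for myoz1b. In the 25 leading genes no mean difference changed sign under any alternative. Since these genes were chosen for wide gaps on the same signals, this is no separate support. The genes acbd4, syt2a, si:dkey-149f22.2, si:ch211-121a2.2 and cog5 were those of the 25 whose eggs stayed apart under all 5 other ways of making the values. The remaining 20 overlapped under median centring, and 6 of them, fkbp10b, gc2, dnmt3ab, stk16, mtdha and bco2a, also overlapped in the Cy3 over Cy5 ratio.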

How the data were processed

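Single eggs of 5 mothers were measured on custom Agilent arrays of 6 slides with 4 arrays each, and were grouped by mother as the sample titles give it. For each array, the deposited file of Agilent Feature Extraction 10.7.3.1 gives intensity values, as the median signal of a spot with its background kept, and as a processed signal with background removed and dyes normalised by that software. In the authors' series table, the Cy3 median signal stands as log2 values, quantile normalised over 88754 probes. Each of its columns ranked the probes as its own scanner file did, and no other file correlated with it above 0.89 by rank, so no 2 files held the same array. These log2 values were used as deposited.

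Expression was called after the study's methods, from the minimum of the log2 variance at -3.75 and a probability over 0.95 on at least 4 arrays. This gave 26803 probes (30.2%), fewer than the expressed transcripts that the paper reports, so its set was not reproduced exactly. Members were counted by the non-overlap of the 9 and 15 eggs, with no test. Clutch 4 against clutch 5, and clutches 1, 2 and 3 by the moderated F, were compared by lmFit and eBayes (limma 3.58.1, R 4.3.3, one model over the 5 mothers, Benjamini-Hochberg at 0.05 over 26803 probes). The steps were tested on simulated data. Figures were drawn with matplotlib 3.10.9.

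The members, the gene lists and the tests were chosen with earlier results of these data known. The genes described in full were the 15 higher and 10 lower named members with the widest gap, with the 3 nearest to the edge of the rule on each side and up to 4 per gene list. The other named genes were taken up for their position or role after their values were seen. Positions are those of the authors' tables, and columns of fold changes and p-values in those tables were not used. The paper names Zv9 for its chromosome locations and a later build for its karyotype view. The build of the positions given here was not checked. Sequences were not used here. The number of arrays limits the precision. The alternatives were other signals and normalisations, probe filters, blocks for egg number, slide or array position, array weights, the array mean as a covariate, other gaps, and each egg left out.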

Additional observations from a re-analysis of the deposited data

Results flagged for a closer look

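The eggs of the 25 leading genes were looked at clutch by clutch for a single egg far from the rest by Dixon's criterion at 95%. Of 125 such groups 4 were marked, which is no more than the 1 in 20 that chance gives. In fkbp10b, egg 5 of clutch 4 read 9.76 while the other eggs of the clutch lay between 9.96 and 10.02. Egg 5 of clutch 3 was low in ENSDARG00000045551, at 13.61 against 13.87 to 13.93, and in mtdha, at 10.95 against 11.31 to 11.41. In hpca, egg 2 of clutch 3 read 9.31, above the 8.96 to 9.03 of the others. In mtdha this egg was the one nearest to clutches 4 and 5 in clutch 3.

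The array also carries 87220 probes outside the main design set, which no comparison above used. Of these, 35263 were well above background on at least 4 arrays. Under the same rule, 156 of them were higher in the 9 eggs (0.442%) and 122 lower (0.346%). The paper describes the further probes of its array as coming from older, redundant designs, and gives a smaller number of them. The counts here are of spots, and whether several spots carry the same probe was not checked. These probes also read the same RNA, so these counts are not independent of those above. No table held ties these probes to genes.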

How the results depend on the processing

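The counts of higher and lower members were 16 and 9 under median centring, 85 and 76 with the Cy3 over Cy5 ratio, and 71 and 85 among probes present on all 24 arrays. They were 46 and 50 with a gap of at least 0.2 and 4145 and 3072 when clutch means replaced egg ranges, both by construction of a stricter and a looser rule. With the slide as a block there were 237 higher members. Clutches 4 and 5 differed in 718 probes and 12 members under median centring, 3020 and 23 with the ratio, and 8726 and 68 with array weights. Among probes present on all 24 arrays, 3329 probes and 24 members differed between clutches 4 and 5. This filter kept 16807 of the 26803 probes, with 71 higher and 85 lower members, so its counts are of a smaller set. Clutches 1, 2 and 3 differed in 1038 probes and 13 members under median centring, in 8012 probes with the ratio, and in 7198 probes and 79 members among probes present on all 24 arrays. The causes were not tested. With the array mean taken out, an alternative chosen after seeing the data, the counts were 155 and 189.

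Leaving out 1 egg at a time gave 158 to 219 higher and 133 to 167 lower members, which can only grow. It gave 3898 to 5392 probes and 31 to 46 members between clutches 4 and 5, and 11163 to 13788 probes and 153 to 170 members among clutches 1, 2 and 3. Eggs share numbers across mothers, but same-numbered eggs of different mothers did not deviate together (mean correlation -0.001), and 1 of the 4 eggs of clutch 5 was closest to its own number in clutch 4. With the egg number as a replicate block there were 210 higher and 171 lower members, 4784 probes and 36 members between clutches 4 and 5, and 11913 probes and 159 members among clutches 1, 2 and 3.

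For single genes, clutch 4 minus clutch 5 changed sign in syt2a under median centring (0.37). The array-wide shift of clutch 4 over clutch 5 was 0.66 log2 there. Probes outside the main design set could not be tied to members' genes, so that comparison was not run. Dim members near background are limited by the floor of the array.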
